A study of Oryza sativa with 28 samples.

Results

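The compact shared open regions of rice young panicles were stretches of chromatin below 2000 bp in which all 8 ATAC-seq libraries of the study had a Tn5 transposase hypersensitive site (THS). ATAC-seq cuts nuclear DNA with the Tn5 transposase, which enters mainly where nucleosomes are loose, so a THS is a stretch with more cuts than its surroundings. The 8 THS lists were merged into 82432 regions. A THS of every library overlapped 35183 of them, and 33815 of these (41.0% of all regions, 96.1% of the shared ones) were shorter than 2000 bp. They were chosen by the presence of a THS in all 8 lists and by the merged length, so neither is a result. The choice also bounds the scores from below, since a THS needs a score of at least 50 to be listed, and bounds the widths through the merged length. It treated all libraries alike, and used neither differences in score between groups nor the RNA of the genes beside the regions.

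Open chromatin at promoters and enhancers lets transcription factors reach DNA. Much of it is shared between tissues and stages of a plant, and shared THSs often lie at promoters of genes that most cells use. In anthers, meiosis and the first steps of microspore development need many genes of the tapetum, the layer that feeds the pollen, and mutants that change with temperature or day length can lose pollen at these steps.

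The panicles came from WXS (Wuxiang S), an indica line with the tms5 mutation whose male fertility depends on the growing conditions. Every group, fertile or sterile, was this line. Fertile plants, WXS(F), were moved when their panicles were about 1 cm long to chambers averaging 22 °C and 77% relative humidity. Sterile plants, WXS(S), stayed in the summer paddy field, where the average temperature was above 22 °C. Fertility type, temperature and growing place therefore cannot be told apart. Panicles were taken at P3 (meiosis) and at P4 (the uninucleate period), which gives the groups FP3, SP3, FP4 and SP4 with 2 ATAC-seq and 3 RNA-seq libraries each. Day length was given as 14 h of light and 10 h of dark. Whole young panicles hold many cell types besides the anther, and in such bulk samples fewer cells of a type and less open chromatin or RNA per cell cannot be told apart. The study calls the replicates biological, but nothing in the labels says that they were separate plants. The p-values therefore measure the spread between these libraries only. The panicle label was not checked against marker genes, because the gene IDs in the files are not paired with symbols in the sources used here.

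Before the results, 1 feature of the libraries has to be known. In the scores of the compact shared regions, the FP3 libraries stood apart from the other 6, at -73.6 and -94.2 on the first principal component (45.6% of the variance) against 0.413 to 58.0. The THS lists held 56084 to 63796 sites and the RNA-seq libraries 30577833 to 51193158 counts. The number of ATAC-seq reads per library is not in the lists. The study gives a lower bound for all replicates, and the depth behind each score was not at hand here. The caller's score is −10 times the log10 of a p-value, with a lowest value of 50.

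**Figure D1:**
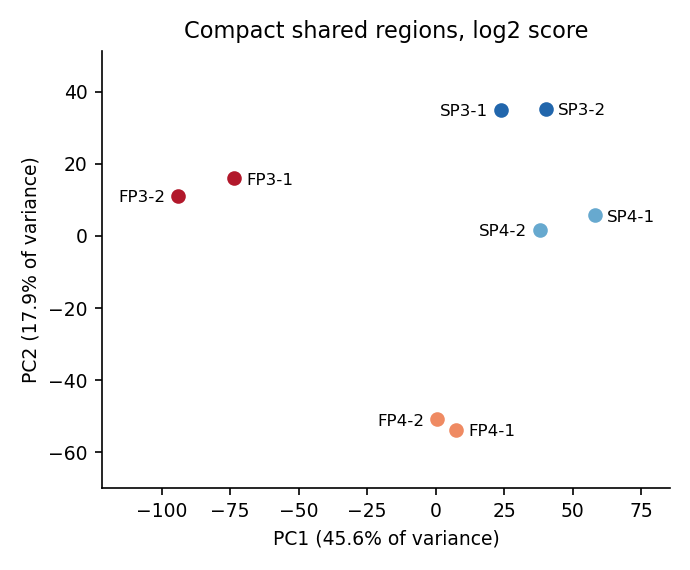
Principal components of the quantile-normalized log2 scores of the 33815 compact shared regions, 1 point per library. The 2 FP3 libraries lie at -73.6 and -94.2 on PC1 and the other 6 between 0.413 and 58.0. FP4 lies lowest on PC2, at -53.8 and -50.9.

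The letters of 4 compact shared regions on chromosome 1 are shown to give a picture of such DNA. They are a region higher in FP3, 2 regions lower in FP3 and a region with similar scores at P3. They are taken from the sequences the study printed for regions it had selected as differing between types, and of the 44 regions with a usable sequence those with the largest and the 2 most negative score differences at P3 and the one with the highest mean score were taken, once the values had been seen. They are given 5′ to 3′ in the MSU release 7 numbering of the Nipponbare genome, plus strand. Capitals mark matches on either strand to GCCGCC (the box of ERF factors), TATAAA (the TATA box), CAATNATTG (a site of homeodomain-leucine zipper factors), TTGAC (the core of the W-box of WRKY factors) or TGGGCC (the site II element of TCP factors). No capital stretch belongs to more than 1 motif. A match is a description of the letters and shows no binding.
chr1:28446810-28447109: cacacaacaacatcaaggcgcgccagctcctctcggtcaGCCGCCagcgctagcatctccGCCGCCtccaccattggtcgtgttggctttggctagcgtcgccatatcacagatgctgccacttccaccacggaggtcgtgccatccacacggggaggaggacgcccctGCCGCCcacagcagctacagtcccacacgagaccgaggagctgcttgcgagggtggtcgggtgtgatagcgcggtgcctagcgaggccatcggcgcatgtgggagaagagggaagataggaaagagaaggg
chr1:16038883-16039131: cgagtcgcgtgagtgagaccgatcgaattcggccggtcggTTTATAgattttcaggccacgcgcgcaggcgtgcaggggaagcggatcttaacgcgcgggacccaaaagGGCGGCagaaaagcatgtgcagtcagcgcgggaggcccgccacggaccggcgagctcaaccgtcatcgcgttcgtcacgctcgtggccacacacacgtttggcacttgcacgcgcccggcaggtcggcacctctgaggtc
chr1:14591895-14592163: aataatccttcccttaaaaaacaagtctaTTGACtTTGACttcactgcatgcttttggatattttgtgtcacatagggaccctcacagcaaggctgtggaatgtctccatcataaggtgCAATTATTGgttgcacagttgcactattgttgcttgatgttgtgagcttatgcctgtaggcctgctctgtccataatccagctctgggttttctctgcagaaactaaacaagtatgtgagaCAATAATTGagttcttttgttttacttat
chr1:26479991-26480265: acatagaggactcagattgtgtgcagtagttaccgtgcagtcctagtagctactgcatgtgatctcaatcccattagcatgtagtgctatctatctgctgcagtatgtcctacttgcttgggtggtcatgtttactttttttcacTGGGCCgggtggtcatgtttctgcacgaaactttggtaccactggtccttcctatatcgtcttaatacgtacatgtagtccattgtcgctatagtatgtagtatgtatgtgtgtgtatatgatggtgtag

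The first stretch, with 63.3% G and C and 3 matches to GCCGCC, lies in the region Chr1:28445936-28447208 (1273 bp), downstream of LOC_Os01g49460 and LOC_Os01g49470. Its scores were 573 and 454 (FP3), 151 and 145 (SP3), 311 and 264 (FP4) and 297 and 343 (SP4). Both FP3 libraries were above all others (log2 difference FP3 − SP3 1.78 ± 0.23 SE, limma adjusted p = 0.00831), and at P4 the types overlapped (0.01 ± 0.23, adjusted p = 0.992). The second stretch, with 64.7% G and C, lies over an exon and an intron of LOC_Os01g28660 in the region Chr1:16038783-16039180 (398 bp). Its scores were 56.3 and 52.5 (FP3), 253 and 329 (SP3), 184 and 219 (FP4) and 327 and 314 (SP4). FP3 lay near the lowest score the caller reports, below every other library (log2 difference −2.49 ± 0.19 SE, limma adjusted p = 0.00757). FP4 was also below SP4 without overlap, and this difference did not pass the test (−0.51 ± 0.19, limma adjusted p = 0.250).

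The third stretch, rich in A and T (39.4% G and C), holds 2 matches to CAATNATTG and 2 to TTGAC and lies in the region Chr1:14591402-14592460 (1059 bp), upstream of and within an exon of LOC_Os01g25740. Scores were 189 and 84.1 (FP3), 473 and 568 (SP3), 457 and 395 (FP4) and 756 and 838 (SP4). WXS(F) was below WXS(S) at both stages without overlap, and the difference passed the test at P3 (log2 difference −2.10 ± 0.36 SE, limma adjusted p = 0.0130) but not at P4 (−0.66 ± 0.36, adjusted p = 0.399). The fourth stretch, between genes in the region Chr1:26479114-26480285 (1172 bp), holds 1 match to TGGGCC. Its scores of 1168 and 1202 (FP3), 1105 and 1499 (SP3), 965 and 1020 (FP4) and 1425 and 1382 (SP4) overlapped between the types at P3. The log2 difference FP3 − SP3 was 0.11 ± 0.19 SE (limma adjusted p = 0.716). At P4, FP4 was below SP4 without overlap, and the difference did not pass the test (−0.27 ± 0.19, limma adjusted p = 0.524). The sequence came from the study's SP4 list.

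Only part of the sequences the study printed was at hand. In that part, 46 compact shared regions had a whole sequence without masked bases. Of these, 44 had at least 200 bases, 42 of them on chromosome 1. Their middle 200 bases held 55.8% ± 8.4 G and C (SD, n = 44), against 54.3% ± 9.6 (SD, n = 184) in regions that were not compact and shared. With regions of 300 to 1000 bp only, the order turned, at 54.9% (n = 31) against 55.0% (n = 135). By the study's lists it was 66.4 against 57.5% in the WXS(F) lists and 52.2 against 49.8% in the WXS(S) lists, which the 2 sets held in different proportions. TGGGCC was found in 19 of 44 (43.2%) against 22 of 184 of the other regions, and GCCGCC in 34.1% against 27.2%. Among the sequences from the study's WXS(S) lists, TGGGCC was in 17 of 33 compact shared regions and 10 of 77 others, and among those from its WXS(F) lists in 2 of 11 and 12 of 107. GCCGCC was in 10 of 11 compact shared regions and 39 of 107 others from the WXS(F) lists, and in 5 of 33 and 11 of 77 from the WXS(S) lists. TATAAA was in 4.55% and 4.35%, CAATNATTG in 4.55% and 2.17% and TTGAC in 25.0% and 26.6%. These sequences are a small set selected for difference and mostly from 1 chromosome, so they are a description and not an estimate for the 33815.

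Most compact shared regions were below 1000 bp and held a single THS. Their median length was 775 bp (quartiles 566.5 and 1069 bp), 23811 (70.4%) were below 1000 bp, and together they covered 28.9 Mb, 52.3% of the length of all merged regions. Every library had a single THS in 27391 of them (81.0%). On the 12 chromosomes they made up between 37.3% (chromosome 11) and 43.7% (chromosome 3) of the merged regions. The median gap from 1 such region to the next was 5938 bp, and 4184 of 33803 gaps (12.4%) were shorter than 1000 bp.

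Each library placed between 56.5% and 64.8% of its THSs in the compact shared regions. The median score there was 185 to 234 across the libraries, against 72.1 to 81.0 in regions not shared by all and 198 to 335 in the 1368 broad shared regions. These levels follow in part from the choice, because a weak THS is more easily missed in 1 of 8 lists. In 3371 regions (9.97%) the weakest library scored below 60, close to the caller's lower limit, and in 21044 (62.2%) it scored above 100. Another 7023 regions lacked a THS in a single library, with a median weakest score of 60.7 against 128 in the compact shared ones. SP4 replicate 1 was missing most often (1311 regions), then SP3 replicate 2 (1261) and SP3 replicate 1 (1124), and SP4 replicate 2 least often (325).

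**Figure D2:**
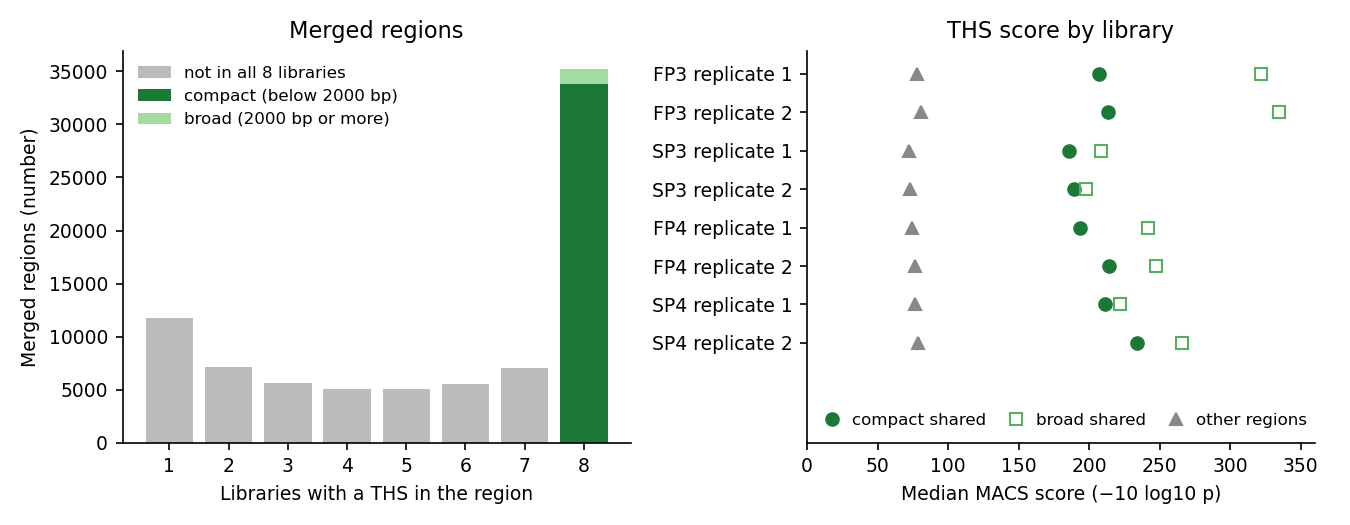
Left, merged regions by the number of libraries with a THS in them (bars, number of regions), with the 33815 compact and 1368 broad regions of all 8 libraries stacked. Right, the median MACS score (−10 log10 p) per library in compact shared, broad shared and other regions. The compact shared regions lie between 185 and 234 in every library and the other regions between 72.1 and 81.0.

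Regions on either side of the length limit were compared by their scores. Just inside it lay Chr1:21944192-21946190, Chr2:31153350-31155348 and Chr3:16457419-16459417, each 1999 bp, with median scores of 99.3, 341 and 408. Just outside lay Chr3:1560961-1562960 and Chr7:21842595-21844594 with 2000 bp and Chr4:20393200-20395200 with 2001 bp, at median scores of 511, 118 and 99.3. There were 348 regions of 1900 to 1999 bp, and 249 shared regions in the next 100 bp. The gene tms5 itself (LOC_Os02g12290) is a nuclease gene whose loss makes fertility depend on temperature. In the part of the study's list of differing THSs at hand, 1 region upstream of tms5 was found, Chr2:6395581-6395997. It had a THS in 1 of 8 libraries and is not among the compact shared regions. A shared THS at tms5 that did not differ would not be on that list, so whether there is one cannot be told from it. The study itself describes the open chromatin at tms5 as fairly alike in WXS(F) and WXS(S).

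The spread of the edges of the compact shared regions over the libraries is given as a description. The choice bounded it, through the overlap of the THSs and the merged length, and no other regions were compared. Over the 27391 regions with a single THS in each library, the SD of the left edge over the 8 libraries had a median of 33.3 bp and that of the right edge 35.5 bp. Replicates of 1 group differed by a median of 26 to 29 bp at either edge, an absolute difference and not an SD. The midpoint had a median SD of 26.9 bp, and in the 5% of regions where it varied most the SD exceeded 97.2 bp.

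The width of the THSs was compared between the types in both stages together. The median THS length was 627 and 600 bp (FP3), 554 and 523 bp (SP3), 594 and 573 bp (FP4) and 555 and 590 bp (SP4). At P3 the types did not overlap, and at P4 an SP4 library lay between the FP4 libraries. The mean difference was 43 bp over both stages (exact permutation test over 4 against 4 libraries, two-sided, p = 0.0571, adjusted over 8 comparisons p = 0.229). The part of a region covered by THSs was 90.1 and 87.5% (FP3), 82.9 and 79.9% (SP3), 87.3 and 85.3% (FP4) and 84.2 and 87.2% (SP4). The mean difference between types was 3.99 percentage points (exact permutation p = 0.0571, adjusted p = 0.229). The share of regions split into more than 1 THS was 4.99 and 6.44% (FP3), 7.27 and 8.50% (SP3), 5.71 and 7.31% (FP4) and 6.89 and 6.74% (SP4) (exact permutation p = 0.143, adjusted p = 0.381). Between the stages none of these measures differed beyond the spread (exact permutation p from 0.800 to 0.943), and the smallest p the design allows is 0.0286.

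The rank of the compact shared regions within each list was similar in the libraries. The median region stood at 68.7 and 70.1% of the list (FP3), 67.2 and 67.8% (SP3), 68.1 and 70.4% (FP4) and 68.2 and 70.9% (SP4). The types overlapped (exact permutation p = 0.457), as did the stages (exact permutation p = 0.314).

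At P3, 5568 of the 33815 compact shared regions (16.5%) differed in score between WXS(F) and WXS(S). The share over all 35183 shared regions was 16.6%, a background made up almost wholly (96.1%) of the compact regions themselves. Of the 1368 broad shared regions, 237 were called higher in FP3 (17.3%) and 40 lower (2.92%), against 5.66 and 10.8% of the compact ones. In FP3, 1915 scored higher and 3653 lower than in SP3 (background 6.12% and 10.5% of all shared regions) at an adjusted p below 0.05 in limma on quantile-normalized log2 scores. These calls depended on single libraries: without FP3 replicate 2 none was called, although 8274 had an unadjusted p below 0.05, and without SP3 replicate 2 there were 897. With the summed THS length in place of the score, 89 regions were higher and 87 lower, and 66 regions were called by both measures, 64 of them in the same direction.

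The regions higher in FP3 were longer than those lower in FP3. The 1915 higher ones had a median length of 1074 bp, a single THS per library in 63.0%, and median scores of 301 for FP3, 122 for SP3, 196 for FP4 and 174 for SP4. Their log2 differences ran from 0.61 to 2.65 with a median of 1.10, and 1204 were above 1. The 3653 lower ones had a median length of 585 bp, a single THS per library in 90.1%, and median scores of 141 for FP3, 300 for SP3, 248 for FP4 and 362 for SP4. Their log2 differences ran from −2.90 to −0.61 with a median of −1.12, and 2353 were below −1. FP3 was the highest group in 93.8% of the former and the lowest group in 92.8% of the latter. Over all compact shared regions FP3 was highest in 36.9% and lowest in 34.3%. The classes were chosen by FP3 against SP3, so the high shares follow in part from that choice.

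Because merged length is the value that the choice of the regions limited, and is the union of the THSs of all libraries, the wider THSs of FP3 enter it. The lengths of the called regions and the values by length class are therefore a description. The regions were split by merged length into 5 classes of equal size. In the shortest class (140 to 527 bp), 81 regions were higher in FP3 and 1402 lower (1.20 and 20.7%), with a median log2 difference of −0.37. In the middle class (690 to 873 bp) there were 321 and 581, with a median of 0.01. In the longest class (1157 to 1999 bp), 801 were higher and 269 lower (11.9 and 3.99%), with a median of 0.34. Medians of FP4 − SP4 followed the same order at a smaller size, from −0.14 to 0.11, and those of SP4 − SP3 stayed between −0.01 and 0.01. The part of THS width in the score was not tested.

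**Figure D3:**
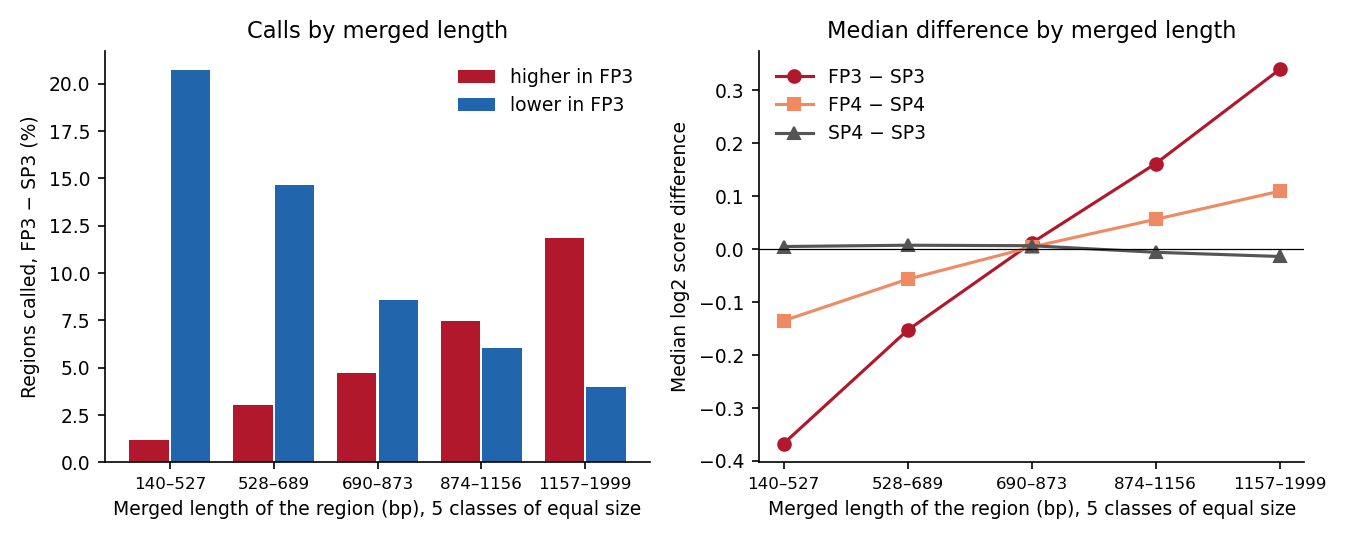
Compact shared regions in 5 equal classes of merged length (bp). Left, percent called higher (red) or lower (blue) in FP3 than in SP3; right, the median log2 score difference of 3 contrasts. Calls lower in FP3 fall from 20.7% in the shortest class to 3.99% in the longest, and calls higher in FP3 rise from 1.20 to 11.9%.

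The same values can be put into 1 number per library, the median score of the longest class over that of the shortest class. This measure was chosen after the values had been seen and rests on the same length classes, so no test of it is given. The ratio was 2.75 and 2.92 (FP3), 1.92 and 1.73 (SP3), 2.10 and 2.18 (FP4) and 1.68 and 1.88 (SP4). All WXS(F) libraries were above all WXS(S) libraries, at each stage and over both. The means of the types lay 0.69 apart, and between the stages the ratios overlapped.

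**Figure D4:**
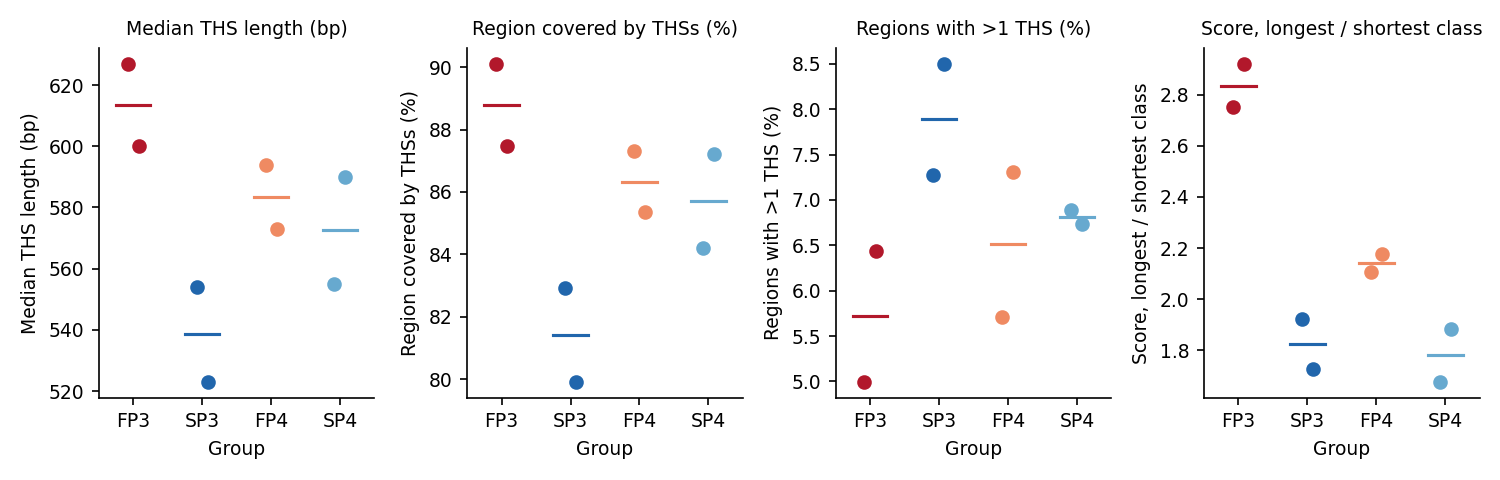
Measures of the compact shared regions per library: median THS length (bp), percent of a region covered by THSs, percent of regions with more than 1 THS, and the score ratio of the longest to the shortest class. Points are libraries and lines are group means; axes do not start at 0. In the last panel the 4 WXS(F) libraries lie between 2.10 and 2.92 and the 4 WXS(S) libraries between 1.68 and 1.92.

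At P4 no compact shared region passed the test between WXS(F) and WXS(S) (background 0% of all shared regions, limma), although 5568 had an unadjusted p below 0.05. Scaling by medians gave 28 calls, the summed THS length 29, and a fit of only the regions with at least 100 in every library 115. Among the regions higher in FP3 than SP3, FP4 was above SP4 in 1520 of 1915 (79.4%, median log2 difference 0.31). Among those lower in FP3, FP4 was below SP4 in 3042 of 3653 (median −0.33). Over all compact shared regions FP4 was above SP4 in 50.6%, a share not matched for length. The median FP4 − SP4 difference itself ran from −0.14 in the shortest length class to 0.11 in the longest. The part of length in these shares was not tested, and regions are no replicates. The P3 and P4 contrasts share no library.

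The 4 contrasts differed in the size of their score differences. The median absolute log2 difference was 0.45 for FP3 − SP3, 0.37 for FP4 − FP3, 0.28 for FP4 − SP4 and 0.21 for SP4 − SP3. Between replicates of 1 group it was 0.23 to 0.27, on single libraries rather than means. A difference of more than 1 was reached by 13.6% of regions for FP3 − SP3 and 1.72% for SP4 − SP3. Pearson correlations of the log2 scores across the 33815 regions, which share width and sequence and are no replicates, were 0.90 to 0.92 between replicates, 0.88 to 0.90 between SP3 and SP4 libraries, 0.76 to 0.81 between FP3 and FP4 and 0.70 to 0.79 between FP3 and SP3.

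Between the stages, score calls were made in WXS(F) and none in WXS(S). In FP4, 2414 regions scored higher than in FP3 and 1017 lower (3431 in all, background 10.2%, or 6.95% higher and 3.27% lower). The count was 374 without FP3 replicate 2, 448 without FP4 replicate 1, 945 without FP4 replicate 2, 1441 without FP3 replicate 1 and 140 with the summed THS length. Between SP4 and SP3 limma called no region (background 0%), 3137 had an unadjusted p below 0.05, and the summed THS length called 1. FP4 − FP3 and FP3 − SP3 share the FP3 libraries. The stage contrasts of the 2 types differ by the same amount as the type contrasts of the 2 stages, and the test of that difference follows.

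The type difference differed between the stages at 1 region in limma (background 0.00284%), and 5162 had an unadjusted p below 0.05. The region, Chr1:34005388-34006451 (1064 bp), scored 245 and 287 (FP3), 66.3 and 70.8 (SP3), 56.1 and 61.1 (FP4) and 153 and 172 (SP4). It was high in fertile panicles at meiosis and in sterile panicles at the uninucleate period, with no overlap at either stage. The log2 difference was 1.87 ± 0.18 SE at P3 (adjusted p = 0.00757) and −1.41 ± 0.18 at P4 (adjusted p = 0.0617), and their difference 3.27 ± 0.25 (adjusted p = 0.0492). No call was left when any of the 8 libraries was taken out.

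The 3 regions with the largest difference at P3 were weak in SP3. Chr1:30675658-30677027 (1370 bp) scored 404 and 449 (FP3), 52.8 and 89.5 (SP3), 158 and 221 (FP4) and 52.5 and 160 (SP4) (log2 difference FP3 − SP3 2.65 ± 0.45 SE, limma adjusted p = 0.0130). Chr9:22260640-22262011 (1372 bp) scored 422 and 468 (FP3), 95.8 and 54.8 (SP3), 73.2 and 257 (FP4) and 86.7 and 118 (SP4) (2.64 ± 0.52, adjusted p = 0.0185). In both, FP3 was above every other library, and at P4 the types overlapped. Chr4:30157167-30159115 (1949 bp) scored 499 and 553 (FP3), 81.2 and 92.9 (SP3), 131 and 411 (FP4) and 333 and 337 (SP4) (2.63 ± 0.43, adjusted p = 0.0119). Here SP4 was also well above SP3.

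The 3 regions with the most negative difference were strong in every group but FP3. Chr4:14736990-14737775 (786 bp) scored 70.6 and 67.4 (FP3), 518 and 480 (SP3), 446 and 579 (FP4) and 639 and 698 (SP4) (log2 difference −2.90 ± 0.19 SE, limma adjusted p = 0.00757). Chr4:24091312-24092174 (863 bp) scored 89.1 and 51 (FP3), 454 and 505 (SP3), 380 and 328 (FP4) and 497 and 536 (SP4) (−2.87 ± 0.28, adjusted p = 0.00757). Chr11:13645049-13645735 (687 bp, between genes) scored 116 and 98.1 (FP3), 709 and 794 (SP3), 718 and 703 (FP4) and 1002 and 1082 (SP4) (−2.85 ± 0.19, adjusted p = 0.00757). At P4 none of the 6 regions passed the test between the types. Without FP3 replicate 2 none of the 6 passed the test at P3 either.

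**Figure D5:**
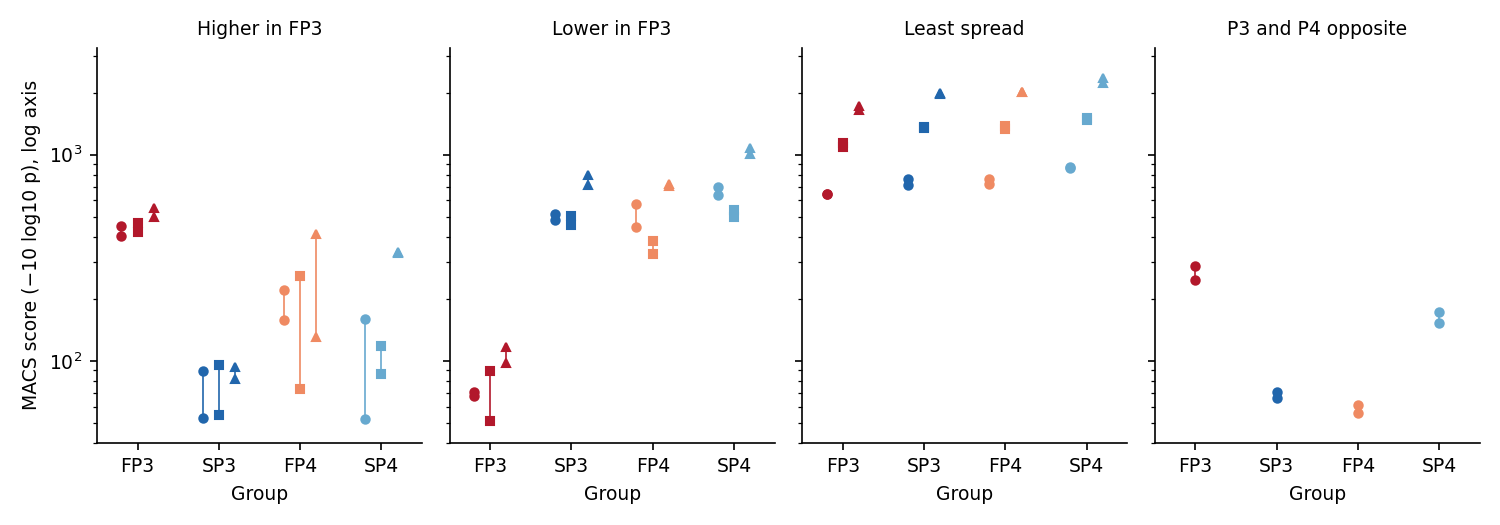
MACS scores (−10 log10 p, log axis) of 10 compact shared regions in the 8 libraries; each symbol shape within a panel is 1 region and a line joins the 2 replicates of a group. The panels show the 3 regions most above and the 3 most below SP3 in FP3, the 3 with the least spread among those with all scores below 3100, and the region whose type difference turned between P3 and P4.

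Some regions had a score of 3100 in every library or were almost constant. The 5 highest in mean rank were Chr1:9638609-9640096, Chr4:12545788-12546410, Chr8:12797714-12798333, Chr9:4678413-4679894 and Chr10:10807019-10808657, which had a score of 3100 in all 8 libraries, a value at which scores pile up. There were 8 regions tied at this rank and 22 with at least 1 score of 3100 or more. The one on chromosome 4 lies over exons of LOC_Os04g22130 and LOC_Os04g22140 and that on chromosome 10 over an exon of LOC_Os10g21192. Where scores pile up, a difference between libraries cannot be seen. Among regions with all scores below 3100, the smallest spread of the normalized log2 score was found at Chr5:22494644-22495286 (scores 642 to 872), Chr12:21296290-21297473 (1084 to 1509) and Chr1:24284960-24285977 (1655 to 2343), named after their values were seen.

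Gene positions were at hand for 506 of the compact shared regions (1.5%). They come from a list of regions that had been picked for a difference between the types, so they are no random draw. Through 229 of these regions, 268 genes had one within 2 kb upstream or in the 5′ untranslated region. Because of that choice their counts are a description. Between FP3 and SP3, 164 of the 268 had enough counts to be tested, and 30 were higher in FP3 and 10 lower (background 21.5% of 24405 genes, 14.8% higher and 6.74% lower) where a call needed a change of more than 1 on the log2 scale and an adjusted p under 0.05 (edgeR quasi-likelihood). Between FP4 and SP4, 32 of 167 were higher and 15 lower (background 22.3%, or 15.4% higher and 6.87% lower). Between FP4 and FP3 it was 19 and 18 of 170 (background 19.0%, or 12.9% and 6.13%), and between SP4 and SP3 17 and 10 of 162 (background 19.7%, or 12.8% and 6.85%). The median log2 fold change of the listed genes was 0.11 for FP3 − SP3 and 0.08 for FP4 − SP4, against 0.04 and 0.00 over all genes tested.

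The RNA of the listed genes was also set beside the score calls at P3. Of 55 genes beside a region lower in FP3, 12 had more RNA in FP3 and 3 less, with a median log2 fold change of 0.25. Of 14 genes beside a region higher in FP3, 1 had more and 1 less, with a median of −0.35. Of 98 genes beside a region that was not called, 18 had more and 6 less, with a median of −0.01. Over all genes tested, 14.8% had more RNA in FP3 and 6.74% less. A link between score and RNA was not tested.

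Of the 3 listed genes that rose most in fertile panicles at P3, 2 lay beside regions called lower in FP3. So did 55 of the 164 listed genes tested. LOC_Os10g33760, without an annotation in the sources used here, had 84.8, 79.7 and 73.8 CPM (counts scaled to the TMM-adjusted library total) in FP3 and 0.0630, 0.109 and 0.325 in SP3. It also stood at 57.5, 53.8 and 60.1 CPM in FP4 and 3.4, 1.95 and 3.06 in SP4. Lack of overlap between the types was a condition for naming it at each stage. The log2 fold change was 9.10 ± 0.41 SE at P3 (edgeR adjusted p = 2.81e-05) and 4.38 ± 0.21 at P4 (adjusted p = 1.18e-05). The region at its 5′ untranslated region, Chr10:17849169-17850424, scored 51.9 and 67.5 in FP3 and 64.6 and 179 in SP3, which overlapped (log2 difference −0.95 ± 0.44 SE, limma adjusted p = 0.160).

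LOC_Os01g45274, a carbonic anhydrase of the chloroplast, an enzyme that interconverts CO2 and bicarbonate, had 17.1, 14.2 and 15.8 CPM in FP3 and 0.336, 0.152 and 0.423 in SP3 (RNA log2 fold change 5.77 ± 0.35 SE, edgeR adjusted p = 8.68e-05). The upstream region Chr1:25691520-25691903 scored 64.4 and 64.6 in FP3 and 118 and 135 in SP3, without overlap (log2 score difference −1.09 ± 0.20 SE, limma adjusted p = 0.0150). In FP4 its RNA was highest, at 51.6, 55.1 and 50.5 CPM against 4.83, 5.44 and 4.97 in SP4, while the region scored 134 and 139 in FP4 and 174 and 248 in SP4. LOC_Os01g21250, annotated as like gp1, a wall glycoprotein known from the green alga Chlamydomonas, had 16.6, 15.2 and 14.7 CPM in FP3 and 0.273, 0.413 and 0.650 in SP3 (RNA log2 fold change 5.21 ± 0.32, adjusted p = 8.56e-05). Its RNA was also higher in FP4 than in SP4 (4.32 ± 0.16, edgeR adjusted p = 4.71e-06). The upstream region Chr1:11864317-11864723 scored 199 and 171 in FP3 and 372 and 412 in SP3 (log2 score difference −1.19 ± 0.22, limma adjusted p = 0.0151). At P4 it scored 272 and 241 in FP4 and 465 and 595 in SP4, without overlap (−0.83 ± 0.22, adjusted p = 0.140).

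The genes that fell most in FP3 had smaller changes. LOC_Os11g17380, without an annotation in the sources used here, had 1.08, 0.819 and 1.03 CPM in FP3 and 3.68, 3.83 and 4.49 in SP3 (RNA log2 fold change −1.97 ± 0.22 SE, edgeR adjusted p = 0.000869). Its upstream region Chr11:9695873-9696148, only 276 bp long, scored 118 and 53.8 in FP3 and 207 and 247 in SP3, so that here both were lower in FP3 (log2 score difference −1.61 ± 0.37, limma adjusted p = 0.0276). LOC_Os01g12810, a pentatricopeptide repeat protein of a family that binds RNA in organelles, had 3.70, 2.76 and 3.0 CPM in FP3 and 11.6, 9.83 and 8.45 in SP3 (RNA log2 fold change −1.60 ± 0.20, adjusted p = 0.00116). Its RNA was lower in FP4 than SP4 as well (−2.43 ± 0.14, adjusted p = 2.33e-05), while the region Chr1:7091715-7092111 overlapped between the types at P3, at 94.1 and 103 against 73.0 and 118. At P4 the same region was higher in FP4 without overlap, at 162 and 269 against 123 and 74.6 (log2 score difference 1.21 ± 0.37 SE, limma adjusted p = 0.184). LOC_Os01g19990, a formin-like protein of a family that nucleates actin, fell by 1.27 on the log2 scale (SE 0.36, adjusted p = 0.0284), and its upstream region Chr1:11364263-11365695 scored 265 and 219 in FP3 and 189 and 125 in SP3 (log2 score difference 0.50 ± 0.28, limma adjusted p = 0.228).

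At P4 the strongest rise was in LOC_Os01g08800, a cytochrome P450 annotated as 86B1, which in Arabidopsis hydroxylates very long fatty acids for suberin. It had 61.1, 65.5 and 63.1 CPM in FP4 and 1.26, 1.27 and 1.27 in SP4 (RNA log2 fold change 5.67 ± 0.07 SE, edgeR adjusted p = 1.98e-07), while FP3 libraries had only 2.32, 3.02 and 2.81. The upstream region Chr1:4414893-4416150 had scores of 244 and 141 in FP4 and 160 and 360 in SP4, which overlapped. LOC_Os01g31800, a probable histone H2A, had 4.50, 4.84 and 4.88 CPM in FP4 and 34.4, 33.0 and 35.6 in SP4 (−2.83 ± 0.07, adjusted p = 1.27e-06). Its region Chr1:17420136-17420936 scored 237 and 149 in FP4 and 363 and 316 in SP4, without overlap (log2 score difference −0.69 ± 0.37, limma adjusted p = 0.400). LOC_Os01g51770, porin 4 of the outer mitochondrial membrane, had 11.2, 11.4 and 10.3 CPM in FP4 and 71.6, 76.1 and 73.3 in SP4 (−2.72 ± 0.06, edgeR adjusted p = 1.02e-06). Its upstream region Chr1:29772997-29774036 scored 164 and 165 in FP4 and 255 and 229 in SP4 (log2 score difference −0.43 ± 0.38, limma adjusted p = 0.619).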

How the data were processed

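ATAC-seq (8 libraries) and RNA-seq (12 libraries) were made from whole young panicles of both types at both stages; the study's 8 ChIP-seq samples were not analysed here. The authors aligned ATAC-seq reads with Bowtie2 to MSU release 7 of the Nipponbare genome, dropped organelle and multiply aligned reads, and ran MACS on every library by itself; the deposited score is −10 log10 p and is not scaled between libraries. How depth and peak width enter the score was not tested. The authors aligned RNA-seq reads with HISAT2, and the deposited estimated counts from StringTie are whole numbers per gene. The deposited FPKM table was not used.

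bedtools 2.31.1 merged the peaks, and 1 shared bp was enough for an overlap. The highest score in each shared region was log2-transformed, quantile-normalized and fitted in limma 3.58.1 with 4 groups, and p-values were adjusted by Benjamini-Hochberg over 35183 regions (called below 0.05). Measures per library were compared by exact permutation. Estimated counts were tested in edgeR 4.0.16 (quasi-likelihood, TMM, filterByExpr, each pair of groups alone) with calls beyond 1 on the log2 scale, up or down, at an adjusted p under 0.05; DESeq2 1.42.0 was an alternative. On simulated data with 200 changed features, limma recovered 189 with 7 false calls, and edgeR for FP3 − SP3 (24405 genes) 176 with 12. Both simulations drew features independently and changed few of them by a fixed amount. For limma that amount exceeded the median called difference, so these rates do not describe the real calls. RNA-seq depth was 30577833 to 51193158 counts per library, and the ATAC-seq depth of each library was not at hand. R 4.3.3 and Python 3.11.15 were used.

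Named regions were the 3 called regions at either end of the log2 score difference per stage, the 5 highest in mean rank and the 3 on either side of 2000 bp. Named genes were the 3 called listed genes at either end per stage, with a mean of at least 1 CPM over the libraries compared. For these genes and for the regions at either end, the replicates of the types compared had to show no overlap. Others were chosen after their values were seen. The members and lists were chosen with earlier results of these data known. No genome or annotation of the files' build was used here. Windows at start sites, their alternatives, marker lists and 300-base windows of genome sequence were therefore replaced by gene positions and sequences the study gave for regions it selected, in part of its list. Alternatives were another scaling, peak length, filters, score minimums, a replicate block and leaving out each library.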

Additional observations from a re-analysis of the deposited data

Results flagged for a closer look

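The region Chr1:34005388-34006451 stood out because the types differed in opposite directions at P3 and P4: FP3 lay above SP3 and FP4 below SP4 in all libraries, and the log2 differences differed by 3.27 (limma adjusted p = 0.0492 over 35183 regions). It was the only such call, and it was lost with the replicate block and with any 1 library left out. Groups of 2 and 3 libraries are too small for a check on single outlying libraries.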

How the results depend on the processing

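The number of compact shared regions was 21094 when only peaks with a score of at least 100 were merged, and 34211 to 35204 without 1 library. Calls between FP3 and SP3 (5568) were 1698 higher and 4483 lower with median centring, which shared 5203 of the 5568, all in the same direction. They numbered 176 with summed peak length and ranged from 0 to 4804 with 1 library left out: none without FP3 replicate 2, 897 without SP3 replicate 2, 2644 without SP3 replicate 1 and 2901 without FP3 replicate 1. Calls between FP4 and SP4 were 28 with median centring, 29 with peak length and 115 for regions with at least 100 in every library (added after seeing the data), and 0 without any 1 library. Calls between FP4 and FP3 were 140 with peak length and 374 to 2965 with 1 library left out, and between SP4 and SP3 peak length gave 1. The difference between the contrasts, added after seeing the data, lost its 1 call with peak length, with the replicate block, with a score of at least 100 in every library and without any 1 library (0 each).

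The stage differences in peak measures crossed 0 with 1 library left out, at -15.7 to 19.0 bp in THS length, -0.81 to 2.59 points in cover and -0.74 to 0.43 points in split regions. The type differences kept their sign, at 32.2 to 54.5 bp for length and 0.54 to 0.81 for the score ratio of long to short regions. Listed genes with an RNA call between FP3 and SP3 numbered 38 to 49 with 1 library left out. Without a filter on low counts the median log2 fold change of all genes at P4 moved from 0.00 to 0.36.

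Of the uncalled score differences of named regions, Chr1:26479114-26480285 turned to -0.26 with median centring and ranged from -0.073 to 0.29 with 1 library left out, and Chr1:7091715-7092111 to 0.060 with peak length and ranged from -0.40 to 0.32 with 1 library left out. At P4, Chr1:4414893-4416150 ranged from -0.77 to 0.22 with 1 library left out, and with peak length Chr1:11864317-11864723 to 0.13 and Chr1:17420136-17420936 to 0.65. Of 535 alternative values for named regions and genes, 478 kept direction and call, 47 lost the call, 1 gained it and 9 turned.

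Libraries of the same replicate number did not deviate together (correlations of their deviations -0.07 to 0.08 in ATAC-seq and -0.06 to 0.05 in RNA-seq), so the numbers were not taken as pairs. With the replicate block, 4677 regions were called between FP3 and SP3 (4396 of them also without it), 2704 between FP4 and FP3 and none at P4. Start-site windows with their alternatives and the 100 bp sequence window were not run. The ATAC-seq depth of each library was not at hand, so its effect on scores was not tested.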
